A study of Mus musculus with 30 samples.

Results

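Neighbouring odorant receptor (OR) genes of the mouse, 8 in number, were followed across 30 mice: Olfr24, Olfr844, Olfr849, Olfr851, Olfr855, Olfr862, Olfr873 and Olfr18. They are 8 of the 564 OR genes counted with NanoString probes. They were chosen by their place on chromosome 9 and selected on measured counts, in that several of them step in level between the wild-type mice of cartridge MK29 and those of cartridge MK37. That contrast is therefore described here without a test.

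All RNA came from whole olfactory mucosa of mice 21 days old, with 1 μg of total RNA and 1 mouse per lane, in 5 groups of 6 mice. On cartridge MK38, 6 wild-type 129SvEvTac mice (4 females and 2 males, background 129S6/SvEvTac, here WT129) were set beside 6 mice homozygous for ΔOlfr7Δ (2 females and 4 males, inbred 129SvEv), a deletion of the Olfr7 cluster of OR genes elsewhere on the same chromosome. On cartridge MK29, 6 wild-type mice of the companion strain (3 females and 3 males) were set beside 6 mice homozygous for both ΔP (Berry) and ΔH (1 female and 5 males, here ΔHxΔP), deletions of the P and H elements, enhancers of OR gene clusters on other chromosomes. Cartridge MK37 held 6 wild-type companions of the ΔH strain (4 females and 2 males). All mice of MK29 and MK37 were of mixed C57BL/6J x 129SvEv background. Cartridge, strain colony and genotype cannot be told apart between MK37 and MK29 or between MK38 and the other cartridges.

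Each mature olfactory sensory neuron transcribes a single allele of a single OR gene, out of a repertoire of many such genes that lie in clusters on most chromosomes. The level of an OR mRNA in the whole mucosa thus follows both the number of neurons that chose the gene and the RNA per neuron, and in these bulk samples fewer cells of a type and less RNA per cell cannot be told apart. Inbred strains are known to differ in the levels of many OR genes. The 8 genes belong to the class II receptors, which are proteins with several membrane-spanning helices that signal through the olfactory G protein Gnal.

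The 8 genes lie within 1.58 Mb near the centromeric end of chromosome 9. In RefSeq on GRCm38.p6, where all 8 symbols were found, they follow each other as Olfr24 (MOR132-1, chr9:18754692-18755633), Olfr844 (MOR153-3, chr9:19318524-19319465), Olfr849 (MOR151-1, chr9:19440915-19441853), Olfr851 (MOR155-1, chr9:19496750-19507113), Olfr855 (MOR148-1, chr9:19584511-19585502), Olfr862 (MOR146-1, chr9:19883383-19884673), Olfr873 (MOR145-2, chr9:20300211-20301170) and Olfr18 (MOR145-1, chr9:20313892-20336094). Olfr844 to Olfr862 lie within 566 kb. Olfr24 is 563 kb away on one side of that stretch, and Olfr873 is 416 kb away on the other, with Olfr18 12.7 kb further. RefSeq marks Olfr844 as a transcribed pseudogene and the other members as protein coding in this assembly, which is that of C57BL/6J. Another 16 OR genes of the same region were counted and are used as neighbours.

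What was counted is the mRNA that a pair of probes binds, a capture probe and a reporter probe. The probes of the 5 members with the largest steps between the wild-type groups are given here 5′ to 3′ as deposited, because they define the stretch of mRNA behind each value.
Olfr24 capture probe: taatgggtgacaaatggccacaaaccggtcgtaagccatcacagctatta
Olfr24 reporter probe: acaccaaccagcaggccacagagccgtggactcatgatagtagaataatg
Olfr855 capture probe: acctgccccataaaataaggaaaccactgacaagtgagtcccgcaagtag
Olfr855 reporter probe: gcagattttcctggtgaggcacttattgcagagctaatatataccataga
Olfr844 capture probe: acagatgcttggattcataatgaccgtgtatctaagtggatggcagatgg
Olfr844 reporter probe: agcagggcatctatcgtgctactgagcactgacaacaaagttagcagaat
Olfr862 capture probe: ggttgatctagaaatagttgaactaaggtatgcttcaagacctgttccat
Olfr862 reporter probe: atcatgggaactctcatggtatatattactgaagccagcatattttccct
Olfr851 capture probe: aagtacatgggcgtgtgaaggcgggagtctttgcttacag
Olfr851 reporter probe: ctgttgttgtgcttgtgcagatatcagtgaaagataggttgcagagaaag
All of these are 50 bases long except the capture probe of Olfr851, which has 40. They are written as the strand that pairs with the mRNA. Of the 1128 OR probes in the table, 1126 have a reading frame without a stop codon on the opposite strand and 962 as written; 166 have one on the opposite strand alone and 2 as written alone. Among the OR probes of this set, no probe of a member was close to that of another OR gene. Full OR transcripts were not searched, so binding to other mRNAs was not tested. In ungapped alignments over at least 35 bases, the closest other OR probe matched a member's probe at 57.1% to 78.6% of positions. The closest match to the Olfr855 capture probe was a probe of Olfr872, a neighbour, and the closest to the Olfr862 capture probe was a probe of Olfr847, with 57.9% identity.

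Values are scaled counts: lane counts scaled by 6 positive controls and by the 5 reference genes Adcy3, Ano2, Cnga2, Gnal and Omp. These 5 genes belong to the signalling chain of mature olfactory sensory neurons or mark them, and all were counted in every lane, between 5982 and 126776 scaled counts. The probe set holds no marker of the other cell types of the mucosa. Before scaling by them, their geometric mean was higher by 0.18 on the log2 scale in ΔOlfr7Δ than in WT129 mice (two-sided exact permutation test, p = 0.0628, n = 6 and 6), and by 0.09 in ΔHxΔP than in WT mice of MK29 (p = 0.232, two-sided exact permutation test). Summed OR counts per lane ran from 618163 to 1013430. The background of a lane, the mean plus 2 SD of its 8 negative controls, ran from 32.4 to 56.2 scaled counts, and 7 members exceeded it in every mouse in which they were counted. Lanes 1 to 6 of MK29 and MK38 held the wild-type mice and lanes 7 to 12 the mutants, so lane and genotype cannot be told apart.

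**Figure D1:**
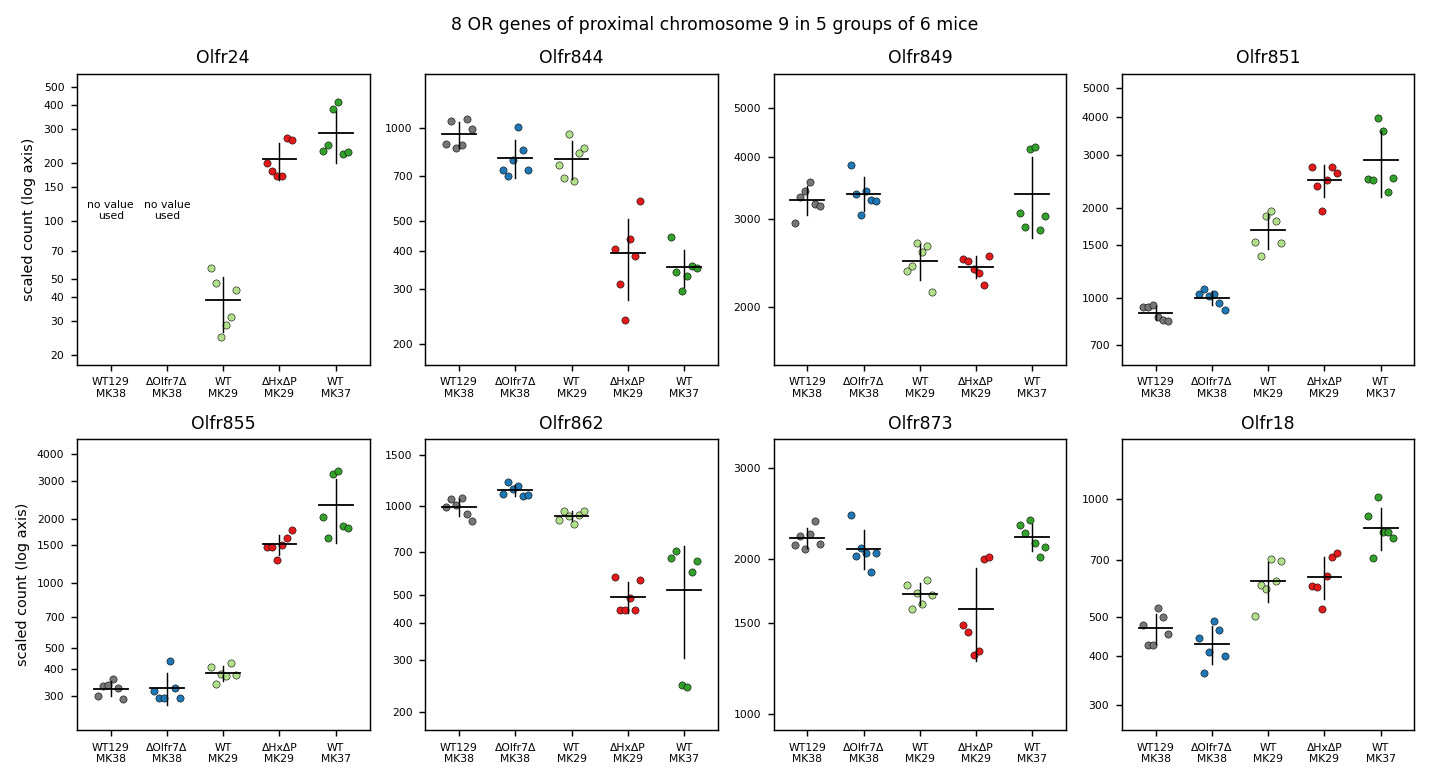
Scaled counts of the 8 OR genes (log axis, a different range in each panel) in each of 6 mice per group; a horizontal line is the group mean and a vertical line the SD. Olfr24 and Olfr855 are low in wild-type mice of MK29 and high in ΔHxΔP mice and wild-type mice of MK37, and Olfr844 and Olfr862 show the opposite order. Olfr24 was not analysed in the MK38 mice.

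Olfr855 had the largest difference between groups among the members read in all 5. Its scaled count was 338 to 425 (median 377) in WT mice of MK29, 290.0 to 358 (median 329.7) in WT129 mice and 292 to 435 (median 304) in ΔOlfr7Δ mice. In ΔHxΔP mice it was 1281 to 1764 (median 1494), and in WT mice of MK37 it was 1618 to 3334 (median 1933). The levels thus fell into a low range shared by 3 groups and a high range shared by the other two, with no mouse between 435 and 1281. The mean of the WT mice of MK37 was 6.02 times that of the WT mice of MK29 and 7.12 times that of WT129.

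Olfr24 showed the same order over the 3 groups in which it was analysed. It was 25 to 56.7 (median 37.6) in WT mice of MK29, and only 2 of these 6 mice exceeded the background of their lane. It was 171 to 269 (median 190.5) in ΔHxΔP mice and 223 to 415 (median 239.5) in WT mice of MK37, above background in all 12. Since the WT mice of MK29 were at background, a fold is a bound: against their mean background, Olfr24 was at least 6.53-fold higher in WT mice of MK37 and at least 4.75-fold higher in ΔHxΔP mice.

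Olfr844 and Olfr862 ran the other way. Olfr844 was 672 to 956 (median 792) in WT mice of MK29, 239.5 to 578 (median 395) in ΔHxΔP mice and 297 to 444 (median 347) in WT mice of MK37. In the 129 strains it was 858 to 1066 (median 936) in WT129 and 696 to 1008 (median 759.7) in ΔOlfr7Δ mice. WT mice of MK29 thus overlapped the 129 mice, and neither of the other mixed groups did. The mean in WT mice of MK29 was 2.24 times that in WT mice of MK37.

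Olfr862 was 868 to 962 (median 932) in WT mice of MK29, 442 to 576 (median 467) in ΔHxΔP mice and 242 to 703 (median 623) in WT mice of MK37. It was 888 to 1068 (median 1004) in WT129 and 1087 to 1206 (median 1123) in ΔOlfr7Δ mice. Again the ΔHxΔP mice and the WT mice of MK37 lay below every mouse of the other 3 groups. The mean in WT mice of MK29 was 1.79 times that in WT mice of MK37.

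Olfr851 rose in 3 ranges. It was 843 to 954 (median 900.2) in WT129 and 917 to 1072 (median 1026) in ΔOlfr7Δ mice, 1386 to 1949.6 (median 1673) in WT mice of MK29, and 1945 to 2739.9 (median 2548) in ΔHxΔP and 2255 to 3973 (median 2505) in WT mice of MK37. The mean of the WT mice of MK29 was 1.87 times that of WT129, and that of the WT mice of MK37 was 3.22 times that of WT129. Olfr851 was therefore the member in which the WT mice of MK29 lay furthest from WT129, relative to its level there, among the 7 genes compared.

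Olfr849, Olfr873 and Olfr18 differed less. Olfr849 was 2146 to 2680.2 (median 2499) in WT mice of MK29, 2216 to 2532 (median 2428) in ΔHxΔP mice and 2852 to 4179.9 (median 3067) in WT mice of MK37. It was 2942 to 3564 (median 3270.5) in WT129 and 3060.2 to 3851 (median 3325) in ΔOlfr7Δ mice. Olfr873 was 1599 to 1817 (median 1709) in WT mice of MK29, 1299.7 to 2013 (median 1463) in ΔHxΔP mice and 2017 to 2375 (median 2195) in WT mice of MK37. For both genes the WT mice of MK37 overlapped WT129, where Olfr873 was 2092 to 2365 (median 2175), and both groups of MK29 were lower on average. In ΔOlfr7Δ mice Olfr873 was 1887 to 2434 (median 2053).

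Olfr18 was highest in WT mice of MK37, at 707 to 1012 (median 824). It was 505 to 703 (median 611) in WT mice of MK29, 524 to 727 (median 620.0) in ΔHxΔP mice, 425 to 529.9 (median 467) in WT129 and 362 to 489.9 (median 426) in ΔOlfr7Δ mice. The WT mice of MK37 lay just above those of MK29, with 707 in the lowest and 703 in the highest mouse, and overlapped the ΔHxΔP mice. The WT mice of MK29 overlapped both the ΔHxΔP mice and WT129.

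Between WT mice of MK37 and of MK29, which chose the members, all 8 genes had ranges that did not overlap, beside 20.1% of all 558 OR genes counted in both groups. Olfr24 has only the bound given above. The differences of mean log2 values were 2.53 for Olfr855, 0.76 for Olfr851, 0.45 for Olfr18, 0.43 for Olfr849 and 0.37 for Olfr873, and -0.97 for Olfr862 and -1.16 for Olfr844. Across all OR genes the median difference was 0.10, and limma called 40.0% of 557 OR genes between these groups (29.3% higher and 10.8% lower in WT mice of MK37), from which nothing is read for the members. The steps of Olfr849, Olfr873 and Olfr18 depended on the scaling: with the median of ratios over OR genes, which brought the median of all OR genes to -0.01, the ranges of these 3 genes overlapped and those of the other 5 did not. With scaling to the positive controls alone, which set that median at 0.19, all 8 stayed apart. Of the 16 neighbours, 5 had ranges that did not overlap.

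**Figure D2:**
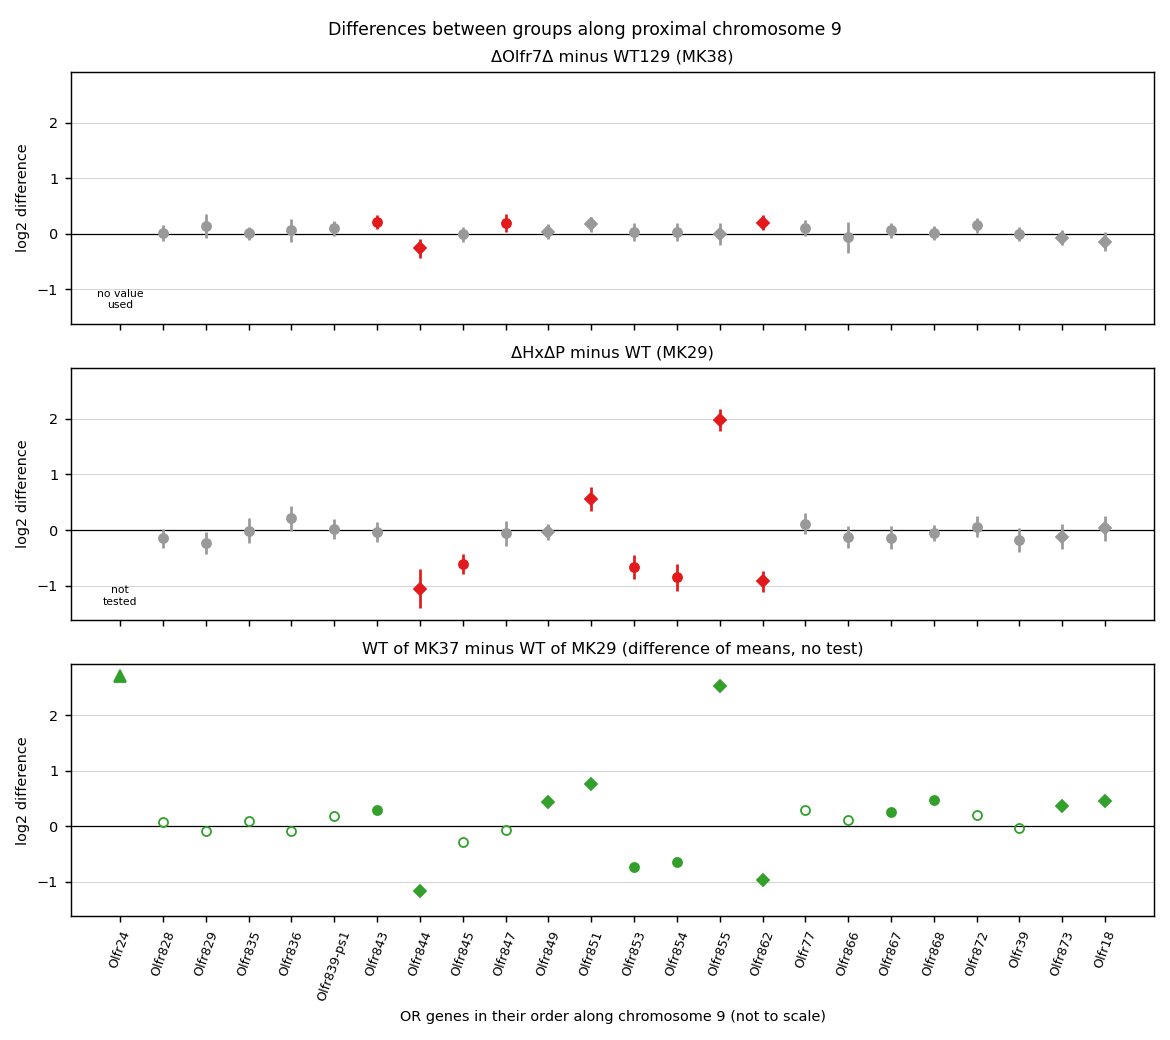
Log2 differences of 24 OR genes in their order along chromosome 9 (diamonds, the 8 members; circles, 16 neighbours). In the upper panels bars are 95% confidence intervals and red marks a limma adjusted p under 0.05; in the lowest panel, with no test, filled symbols mark groups that do not overlap. The triangle of Olfr24 is a lower bound against background. Of the 23 genes tested between ΔHxΔP and WT mice of MK29, 7 were called, beside 26.8% of all 553 OR genes tested. The 7 lie from Olfr844 to Olfr862. Olfr24, outside that stretch, was left out of this test by the filter on low counts and was called without it.

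ΔHxΔP mice were compared with the WT mice of the same cartridge and companion strain. The 2 groups differed widely in 4 of the 7 members tested, all from Olfr844 to Olfr862. Olfr24, outside that stretch, was left untested by the filter on low counts, and was called without it (limma adjusted p = 6.19e-08). Olfr855 and Olfr851 were higher in ΔHxΔP mice, and Olfr862 and Olfr844 were lower. Both groups are of mixed background, and whether the deletions or the background account for these differences was not tested. By limma, 26.8% of all 553 OR genes tested were called in this comparison, 9.76% higher and 17.0% lower. The median size of the log2 difference was 0.56 over the 7 members and 0.16 over all OR genes. The WT mice of MK29 had also entered the contrast that chose the members, so these calls are not independent of that choice.

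Olfr855 was 3.96-fold higher in ΔHxΔP mice (log2 difference 1.99, SE 0.09, 95% confidence interval 1.79 to 2.18, limma adjusted p = 4.06e-12), with the lowest ΔHxΔP mouse at 1281 and the highest WT mouse at 425. Olfr851 was 1.47-fold higher (log2 difference 0.56, SE 0.10, limma adjusted p = 0.000378), although the lowest ΔHxΔP mouse, at 1945, was just under the highest WT mouse. Olfr862 was at 0.53 of the WT level (log2 difference -0.92, SE 0.09, limma adjusted p = 3.39e-07). Olfr844 was at 0.481 of the WT level (log2 difference -1.06, SE 0.17, limma adjusted p = 0.000112). Its 6 ΔHxΔP mice were the most spread of its 5 groups, with an SD of 0.43 on the log2 scale. Neither gene overlapped between the groups. In all, 4 of the 8 members did not overlap (Olfr24, Olfr844, Olfr855 and Olfr862), beside 14.9% of all 558 OR genes. With sex as a covariate, the log2 differences were 1.96, 0.53, -0.90 and -0.99, and all 4 were still called. By tTREAT, a test against a fold change of 1.3, Olfr844, Olfr855 and Olfr862 were called and Olfr851 was not, beside 6.69% of all OR genes.

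Olfr24 had a WT median under 100 normalized counts and was not tested in the main comparison. Without that filter it was called (limma adjusted p = 6.19e-08), with the bound of at least 4.75-fold given above as its size. Olfr849, between Olfr844 and Olfr851 on the chromosome, was not called, with a log2 difference of -0.04 (95% confidence interval -0.18 to 0.10, limma adjusted p = 0.725). Olfr873 and Olfr18, beyond Olfr862, were not called either, with differences of -0.12 (interval -0.35 to 0.10) and 0.03 (interval -0.19 to 0.25). In Olfr873 the ΔHxΔP mice were split, 4 of them at 1299.7 to 1488 and the other 2 at 1995 and 2013. These 2, mice 5 and 6, were also the highest in Olfr24, at 269 and 264 against 171 to 199. The same held in Olfr855 (1627 and 1764) and Olfr18 (713 and 727). It also held in some neighbours but not in others, among them Olfr835 (3442 and 3453). In Olfr849 they were not both highest, at 2216 and 2532, nor in Olfr844, Olfr851 and Olfr862. The share over all OR genes was not computed, so nothing is read from this split. Both mice were singled out after their values were seen.

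Of the 16 neighbours, 3 were called, all lower in ΔHxΔP mice. Beside them, 17.0% of all 553 OR genes were called lower, so nothing is read from this number. All 3 lie within the stretch from Olfr844 to Olfr862. Olfr845 was 1390.1 ± 169 (SD, n = 6) in ΔHxΔP and 2124 ± 179 in WT mice (log2 difference -0.62, limma adjusted p = 3.01e-05). Olfr853 was 360.1 ± 43.7 and 571 ± 58.7 (log2 difference -0.67, limma adjusted p = 0.00011), and Olfr854 was 459 ± 61.4 and 829.5 ± 106 (log2 difference -0.85, limma adjusted p = 1.98e-05). The median log2 difference of the 16 neighbours was -0.09. Olfr847, which also lies in that stretch, was not called, with a log2 difference of -0.06.

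Set against the WT mice of MK37 in place of those of MK29, the same ΔHxΔP mice gave other calls. Both comparisons use the same ΔHxΔP mice, and the WT mice of MK37 also entered the choice of members. Olfr844 and Olfr862 then differed by 0.11 and 0.06 on the log2 scale (limma adjusted p = 0.617 and 0.865), Olfr851 by -0.20 (limma adjusted p = 0.242), and Olfr855 was lower, by -0.54 (limma adjusted p = 0.013). Olfr849, Olfr873 and Olfr18 were lower in ΔHxΔP mice, by -0.47, -0.49 and -0.42, with limma adjusted p of 0.00121, 0.00188 and 0.00358. Of the 8 members, 2 had ranges that did not overlap between these groups, Olfr849 and Olfr873, beside 24.4% of all OR genes. Over all 557 OR genes, 45.2% were called against the WT mice of MK37, beside 4 of the 8 members. With the 12 WT mice of both cartridges pooled, 34.1% of OR genes and 1 member were called, Olfr873 (log2 difference -0.31, limma adjusted p = 0.0347), and the log2 difference of Olfr855, at 0.72, was not (limma adjusted p = 0.275).

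In WT mice of MK37, 2 females (mice 3 and 4, a choice made after their values were seen), stood apart from the other 4 in most members. In Olfr855 they had 3207 and 3334 scaled counts, and the other 4 mice had 1618 to 2024. In Olfr24 they had 382 and 415 against 223 to 247. In Olfr862 they had 247 and 242 against 597 to 703. They were also the highest in Olfr851, at 3973 and 3589.6 against 2255 to 2515, and in Olfr849, at 4139.7 and 4179.9 against 2852 to 3091. In Olfr844 they were the lowest, at 297 and 332, next to 342 in the mouse above them. In all, these mice were both highest or both lowest in 6 of the 8 members, in 4 of the 16 neighbours and in 10.8% of all 558 OR genes. In Olfr873 and Olfr18 they were not.

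The neighbours in which mice 3 and 4 were extreme were Olfr853 (324 and 196, against 369 to 423) and Olfr828 on the low side, and Olfr839-ps1 and Olfr39 on the high side. Olfr854, between Olfr853 and Olfr855, did not set them apart, with 621 and 561 against 389 to 590.2. The values of these mice lay beyond the other mixed groups as well: no ΔHxΔP mouse exceeded 1764 in Olfr855 or fell below 442 in Olfr862. The other 2 females of MK37 were among the other 4 mice. Without mice 3 and 4, the step to the WT mice of MK29 was 2.25 for Olfr855, 0.54 for Olfr851, 0.27 for Olfr849, -0.50 for Olfr862 and -1.08 for Olfr844 on the log2 scale. Olfr24 was then at least 5.28-fold higher. Beside the steps with all 6 mice, that of Olfr862 moved by the largest amount of these 5 genes with a difference.

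The spread between mice differed between groups, and in WT mice of MK37 it restates in part the values of mice 3 and 4. These mice were singled out after their values were seen, and their group had entered the choice of the members. The wider spread there is therefore not a separate finding. The median SD of log2 values over the 8 members was 0.29 in WT mice of MK37 and 0.12 over all OR genes in the same mice. In WT mice of MK29 the members' median SD was 0.15 beside 0.14 for all OR genes, in ΔHxΔP mice 0.18 beside 0.18, in WT129 mice 0.10 beside 0.11 and in ΔOlfr7Δ mice 0.12 beside 0.14. Olfr862 had the widest spread of any member in any group in WT mice of MK37, with an SD of 0.73, and one of the narrowest in WT mice of MK29, with 0.06. In the WT mice of MK37, mice 3 and 4 had 247 and 242 scaled counts of Olfr862 and the others 597 to 703. The SDs without these mice were not computed.

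**Figure D3:**
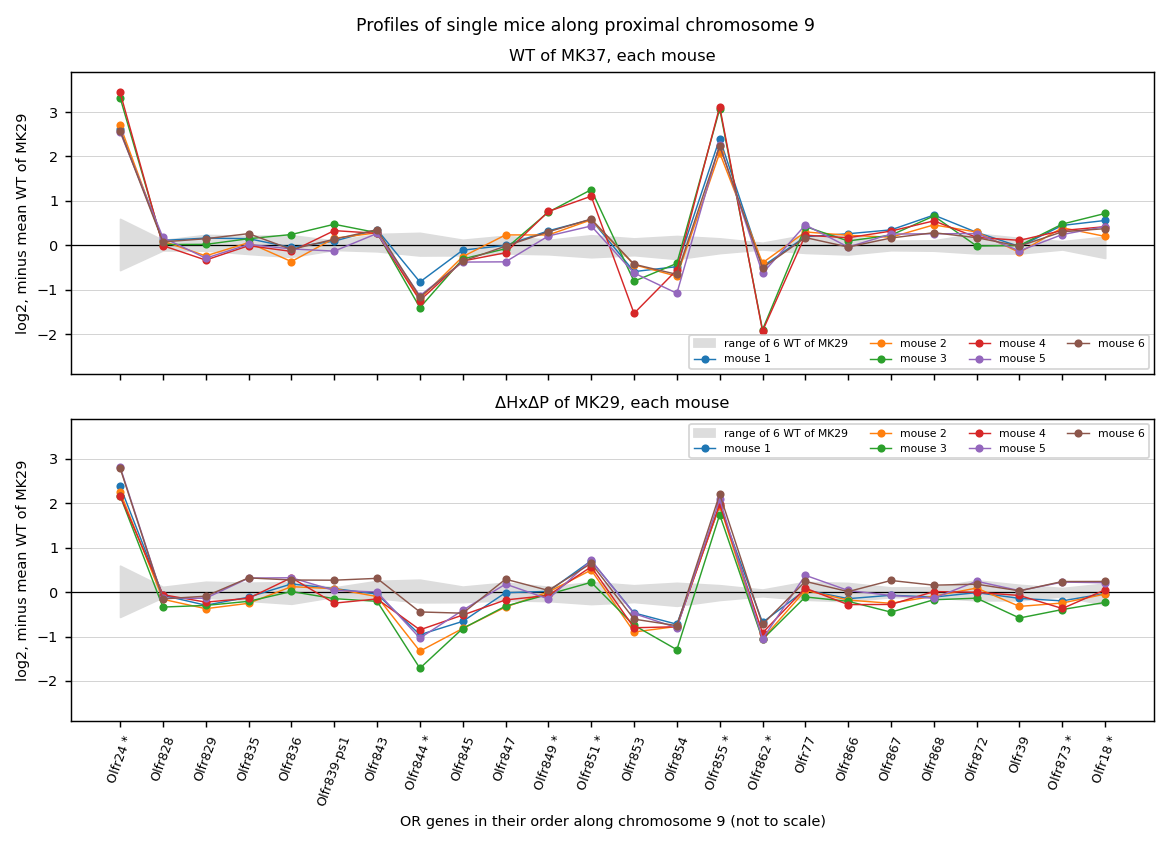
Log2 scaled counts of single mice minus the mean of the 6 WT mice of MK29, for 24 OR genes in their order along chromosome 9 (asterisks mark the 8 members; the grey band is the range of the WT mice of MK29, which for Olfr24 is near background). In WT mice of MK37, mice 3 and 4 lie apart from the other 4 at Olfr24, Olfr849, Olfr851, Olfr855 and Olfr862. The 6 ΔHxΔP mice lie above the grey band at Olfr855 and below it at Olfr844, Olfr845, Olfr853, Olfr854 and Olfr862. They lie inside it at Olfr849, and below, inside and above it at Olfr847. At Olfr851 all but mouse 3 lie above it.

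Compared with WT129, the WT mice of MK29 were the mixed group in which most of these selected members overlapped. The members were chosen for a step between the WT mice of MK29 and MK37, so this order is not a separate finding. Over all OR genes, the share without overlap was lowest in ΔHxΔP mice. Of the 7 members analysed on both cartridges, 3 did not overlap between these groups (Olfr849, Olfr851 and Olfr873), beside 52.8% of all 549 OR genes counted in both. In WT mice of MK37, 5 of 7 did not overlap with WT129 (53.2% of all OR genes), the exceptions being Olfr849 and Olfr873. In ΔHxΔP mice 6 of 7 did not (45.2% of all OR genes). Olfr844, Olfr855 and Olfr862 overlapped between WT129 and the WT mice of MK29 only, with mean ratios of MK29 to WT129 of 0.832, 1.18 and 0.931. Cartridge and strain differ together in these comparisons.

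The comparison of ΔOlfr7Δ with WT129 mice used none of the mice that chose the members. The members changed little: 2 of the 7 analysed were called, Olfr862 higher and Olfr844 lower, beside 35.5% of all 552 OR genes tested (23.4% higher and 12.1% lower). The median size of the log2 difference was 0.14 over the members and 0.14 over all OR genes. The members' share was thus not above the background.

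Olfr862 was 1135 ± 48.2 in ΔOlfr7Δ and 994 ± 68.2 in WT129 mice (SD, n = 6 each), 1.14-fold higher, with a log2 difference of 0.19 (SE 0.07, limma adjusted p = 0.0233) and no overlap between the groups. Olfr844 was 800.1 ± 115 and 954 ± 93.4, with a log2 difference of -0.26 (SE 0.08, limma adjusted p = 0.0183), and its ranges overlapped. Olfr851 just missed the threshold, at 0.17 (limma adjusted p = 0.0506). Olfr855, the member with the widest differences among the mixed groups, differed by 0.00 (95% confidence interval -0.21 to 0.20). Olfr849, Olfr873 and Olfr18 differed by 0.04, -0.07 and -0.14 and were not called. Of the 16 neighbours, Olfr843 (log2 difference 0.21, limma adjusted p = 0.00574) and Olfr847 (0.20, limma adjusted p = 0.0432) were called higher and none lower.

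These small differences lay near the threshold. Without WT129 mouse 5, 1 of the 23 genes of the region was called and no member, beside 28.9% of all OR genes, with Olfr844 at -0.23 and Olfr862 at 0.18 on the log2 scale (limma adjusted p = 0.0566 and 0.0589). Without WT129 mouse 6, 2 genes were called, beside 30.2% of all, with Olfr862 at 0.16 (limma adjusted p = 0.0658). Olfr844 was not called without ΔOlfr7Δ mouse 2 either (log2 difference -0.22, limma adjusted p = 0.051). By tTREAT none of the 23 was called, beside 7.07% of all. With scaling to the positive controls alone, which moved the median of all OR genes from 0.06 to 0.24, 9 were called, all higher, beside 58.7% of all OR genes, and Olfr844 was not among them (log2 difference -0.08).

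Among the members themselves, levels over the 18 mixed mice rose and fell together in pairs. Olfr24 and Olfr855, which lie farther apart than Olfr844 and Olfr862, had a Pearson correlation of log2 scaled counts of 0.97, with Olfr24 near background in the WT mice of MK29, and Olfr855 and Olfr851 of 0.90. Olfr844 and Olfr862 had 0.78, and Olfr855 ran against both, with -0.85 and -0.85. The 18 mice fall into 3 groups that differ in these genes, so these values describe the steps between groups. Within the 6 WT mice of MK37, Olfr849 correlated with Olfr855 at 0.98 and with Olfr862 at -0.97, with mice 3 and 4 at the ends of each range. Within the 6 ΔHxΔP mice the same pairs had 0.07 and 0.64. Olfr844 and Olfr855, opposed over the 18 mice, had 0.90 within the ΔHxΔP mice and -0.49 within the WT mice of MK37. Olfr855 and Olfr862 had 0.43 and -0.98 in these groups.

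The OR gene outside the 8 whose levels were most like those of a member over the 18 mixed mice lay on another chromosome for 7 of the 8 members. The members were left out of this ranking, and Olfr24 and Olfr855 had 0.97 with each other. Only 16 neighbours were among the OR genes ranked. The share of ranked genes on other chromosomes was not computed, so nothing is read from this number. Olfr862 was most like Olfr853, a neighbour (Pearson r = 0.89). Olfr873 was most like Olfr769 on chromosome 10 (0.94), Olfr18 like Olfr693 on chromosome 7 (0.88), Olfr849 like Olfr32 on chromosome 2 (0.86) and Olfr24 like Olfr1156 on chromosome 2 (0.85). For Olfr844 it was Olfr1402 on chromosome 3 (0.85), for Olfr855 Olfr575 on chromosome 7 (0.82) and for Olfr851 Olfr1320 on chromosome X (0.78). These correlations share the same lanes and reference genes.

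RefSeq windows of 250 bases before to 50 after an annotated start were at hand for 5 of the 8 members. For Olfr24, Olfr849, Olfr851 and Olfr855 that start is the start of the gene model, and for Olfr862 it lies 370 bases inside the model. OR promoters are known for homeodomain sites and sites of the Olf1/Ebf factors. The homeodomain core TAATTA, the same on both strands, was in the windows of Olfr24 and Olfr862 and not in those of Olfr849, Olfr851 and Olfr855; it is in 18.6% of the 948 Olfr windows and in 5.29% of all 32851. The letters CCCNNGG, searched on both strands as the core of the Olf1/Ebf site, were in none of the 5 windows, in 17.7% of the Olfr windows and in 50.7% of all. The gene models of Olfr24 and Olfr849 are 942 and 939 bases long, about the length of an OR coding region, so their windows lie at the coding start. The windows of Olfr851, Olfr855 and Olfr862 also hold an ATG in their last 50 bases, followed by a reading frame without a stop codon. All 5 windows thus reach a likely coding start. Whether they cover the promoters was not tested, so nothing is read from the sites found or missing.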

How the data were processed

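The authors deposited raw NanoString counts, 1 table of 30 lanes, with neither scaling nor background subtraction; the table has text lines above its header and empty cells, and its values were recorded as other than plain counts. Cells are empty for Olfr24 on MK38. Lanes were scaled in 2 steps, over all 30 together: to the 6 positive controls, and next to the 5 reference genes, by geometric means. Scaled counts, with 1 added, were put on the log2 scale and fitted by limma 3.58.1 (R 4.3.3; eBayes with trend). An OR gene entered the fit where the median of the wild-type mice, less the lane background (the mean plus 2 SD of 8 negative controls), reached 100. Calls used a Benjamini-Hochberg adjusted p of 0.05 over all OR genes tested. The limma fit was tested on simulated data. Labels name 1 mouse per sample; replicate numbers follow the order of the samples. Positions and start windows are RefSeq's on GRCm38.p6; the deposited table gives no coordinates.

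The 8 genes, the neighbours (from the OR table of the study) and the tests were chosen with earlier results of these data known. The text names the 8 genes, up to 5 neighbours with the smallest p among those called, the 1 gene most like each member, and the 5 reference genes; Olfr828, Olfr839-ps1, Olfr39 and the neighbour Olfr847 in the ΔHxΔP comparison, and mice 3 and 4 of MK37, were singled out after their values were seen. Alternatives were other scalings, background subtraction, a pseudocount of 20, no filter, sex as a covariate, tTREAT (a test against a fold change, here 1.3, at an unadjusted p of 0.01), other wild-type groups and leaving out each mouse. Intervals and p-values rest on the spread between lanes of 1 mouse each, which holds differences between mice and counting noise together. Python 3.11.15 and matplotlib 3.10.9 made the figures.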

Additional observations from a re-analysis of the deposited data

Results flagged for a closer look

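In ΔOlfr7Δ mice, Olfr855 had 1 mouse far from the other 5. Mouse 4 had 435 scaled counts, and the median of the group was 304. The gap to the nearest mouse was 0.74 of the group's range on the log2 scale, above the 95% critical value of Dixon's test for 6 values. Of 38 combinations of a member and a group, 1 was picked out in this way, and chance picks out about 1 in 20.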

How the results depend on the processing

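No paired analysis was possible because the replicate numbers follow the order of the samples and pair no mice. Between ΔOlfr7Δ and WT129 mice, 4 of 23 genes of the region were called, beside 35.5% of all OR genes. The number was 1 to 6 when each mouse was left out in turn. With positive controls alone 9 were called (58.7% of all OR genes) and by tTREAT 0 (7.07% of all). Between ΔHxΔP and WT mice of MK29, 7 of 23 were called, beside 26.8% of all OR genes, and 7 to 9 with each mouse left out. Against the WT mice of MK37, 11 of 24 were called (1 higher and 10 lower), beside 45.2% of all OR genes. Against those mice the differences of Olfr844 (0.11), Olfr851 (-0.20), Olfr855 (-0.54), Olfr862 (0.06) and Olfr18 (-0.42) turned in sign. The step between WT mice of MK37 and of MK29 left 8 members without overlap as scaled here, 7 with background subtracted, 6 with TMM and 5 with the median of ratios; leaving out a mouse cannot make ranges overlap and says nothing here. The planned quasi-likelihood count model was not run. The deposited values are raw counts, but text lines and empty cells led to the table being recorded as other than plain counts. Olfr24 in WT mice of MK29 was at or below the lane background in 4 of 6 mice.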
